A study of Mus musculus with 6 samples.

Results

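Hepatocytes do not all express the same enzymes, and 10 genes that mark their position in the liver lobule were followed in the liver of WT mice and of mice with the TRIM24 C52/55A knockin, all fed a high-fat diet (HFD). The 10 genes were chosen by name, and all 10 were among the 21528 genes with a value in at least 1 library and among the 12225 genes that were tested. The 5 pericentral genes were Glul, Rhbg, Oat, Cyp2e1 and Cyp1a2, and the 5 periportal genes were Gls2, Sds, Hal, Cyp2f2 and Hsd17b13. RNA was sequenced from 3 WT and 3 TRIM24 C52/55A liver samples of C57BL/6 mice. The mice were 5 months old and had been on a diet with 60% fat for 3 months. The HFD was thus common to both genotypes, and no chow-fed liver was analysed here. TRIM24 is a RING-type E3 ubiquitin ligase and transcriptional co-regulator, and the knockin exchanges a pair of cysteines of its RING domain for alanine. Per the study's methods, the allele was made by CRISPR/Cas9 on a C57Bl/6J background, with no cell type-specific driver named, and homozygous knockins and WT mice came from matings of heterozygotes. The labels number the samples within a genotype without saying more, so p-values measure the spread between these 3 samples of each genotype.

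Blood enters the lobule at the portal tract and leaves at the central vein, and hepatocytes along this path divide the work of the liver. Periportal hepatocytes are known for breaking down amino acids, for making urea and glucose, and for taking glutamine apart. Pericentral hepatocytes make glutamine from the ammonia that remains, and hold most of the cytochrome P450 enzymes that oxidise drugs and ethanol. Wnt ligands and R-spondins from the endothelium of the central vein keep beta-catenin active in the pericentral cells, and Glul, Oat, Rhbg, Cyp2e1 and Cyp1a2 are known to depend on this signal.

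Promoter sequences are shown for the pericentral genes with the lowest knockin levels relative to WT that had one (Oat, Glul) and for Cyp2e1, beside the periportal gene that rose (Cyp2f2). RefSeq sequences of the GRCm38.p6 assembly were matched for 7 of the 10 genes, and Rhbg, Sds and Gls2 were not among them. Each runs 5′ to 3′ along the gene's strand, from 250 bases before the transcription start to 50 bases after it. Capitals mark CTTTGA, the core letters that TCF/LEF factors, the DNA-binding partners of beta-catenin, are known to read, searched on both strands.
Glul, chr1:153899679-153899978, plus strand: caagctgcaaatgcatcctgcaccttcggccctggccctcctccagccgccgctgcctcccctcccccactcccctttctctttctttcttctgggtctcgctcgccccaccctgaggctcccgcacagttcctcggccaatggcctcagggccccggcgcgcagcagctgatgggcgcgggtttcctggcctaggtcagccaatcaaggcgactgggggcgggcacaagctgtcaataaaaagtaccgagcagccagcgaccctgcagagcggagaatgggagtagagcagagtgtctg
Oat, chr7:132576349-132576648, minus strand: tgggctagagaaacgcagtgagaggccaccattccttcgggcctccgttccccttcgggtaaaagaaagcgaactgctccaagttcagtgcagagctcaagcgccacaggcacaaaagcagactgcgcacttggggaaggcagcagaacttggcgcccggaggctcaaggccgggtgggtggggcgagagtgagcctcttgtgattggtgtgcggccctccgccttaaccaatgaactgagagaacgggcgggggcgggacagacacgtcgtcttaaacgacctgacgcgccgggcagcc
Cyp2e1, chr7:140763569-140763868, plus strand: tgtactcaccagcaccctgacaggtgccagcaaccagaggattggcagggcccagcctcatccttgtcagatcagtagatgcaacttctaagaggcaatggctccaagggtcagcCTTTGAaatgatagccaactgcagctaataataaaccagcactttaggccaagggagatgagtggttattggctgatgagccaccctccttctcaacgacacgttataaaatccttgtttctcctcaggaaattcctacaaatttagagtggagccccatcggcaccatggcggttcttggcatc
Cyp2f2, chr7:27119705-27120004, plus strand: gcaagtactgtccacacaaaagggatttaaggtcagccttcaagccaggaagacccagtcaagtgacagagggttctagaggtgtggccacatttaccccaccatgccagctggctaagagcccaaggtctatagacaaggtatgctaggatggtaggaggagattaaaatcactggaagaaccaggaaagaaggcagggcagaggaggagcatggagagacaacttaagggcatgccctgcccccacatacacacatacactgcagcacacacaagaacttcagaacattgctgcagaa
Of these 4 promoters only that of Cyp2e1 held the letters, at positions -135 to -130 from the start. Among the 7 matched genes, the promoters of Cyp1a2, Hal and Hsd17b13 held them too, which made 4 of 7, and 16.0% of the 32851 promoters in the table did. The letters were therefore present in promoters of both zones. The Cyp2e1, Cyp1a2 and Hal promoters also held the TATA box letters TATAAA on one of the strands, within 31 bases of the start, as did 13.6% of all promoters somewhere in their window. The Glul and Oat promoters had 64.3% and 61.7% G and C, against a median of 52.7% over all promoters, and those of the other 5 genes had 47.0% to 50.3%. A match of letters is a description and not a binding site.

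Of the 5 pericentral genes, 4 fell in TRIM24 C52/55A liver, whereas of the 5 periportal genes 1 rose and 1 fell. Glul, Rhbg and Oat had 29.5% to 48.0% of their WT level, Cyp2e1 had 68.7%, and Cyp1a2 did not pass the test. Among periportal genes Cyp2f2 rose 1.58-fold and Hsd17b13 fell to 73.7% of WT, while Gls2, Sds and Hal did not pass. Levels are in FPKM, which counts fragments relative to the transcript's length and to the library's mapped fragments, and a gene is said to have risen or fallen when limma, run on log2(FPKM + 1) over all 12225 genes, gave an adjusted p under 0.05. Among all genes tested 7.72% passed, 1.64% as higher and 6.09% as lower in the knockin. Over the members, 3 genes were higher and 5 lower in every knockin library than in any WT library, where 6.31% and 22.5% of all genes tested, 28.9% together, were apart in this way. The median log2 fold change was -0.79 over the pericentral genes, -0.08 over the periportal genes and -0.08 over all genes tested. With median-of-ratios scaling these medians were -0.71, 0.025 and 0.0066, and with quantile normalisation -0.78, 0.073 and 0.0104. As single libraries were left out, the pericentral median ran from -0.99 to -0.64 and the periportal median from -0.155 to -0.031. No test was made of these small lists themselves. In bulk tissue, fewer cells of a kind and less RNA per cell cannot be told apart. The pericentral count was 2 without WT replicate 1, 2 or 3 or without knockin replicate 1 or 2, and the periportal count was 1 without WT replicate 1, 2 or 3 or without knockin replicate 1 or 3.

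**Figure D1:**
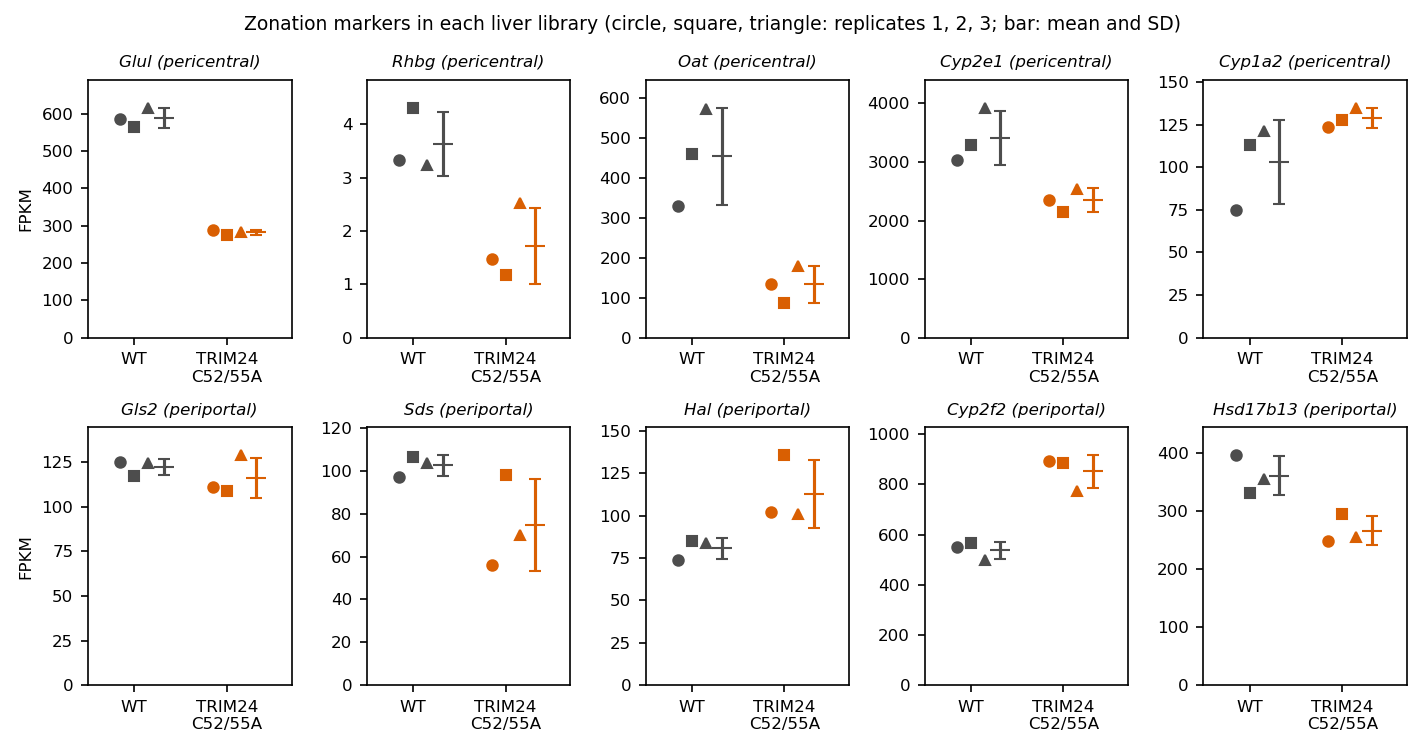
FPKM (linear axis from 0) of each of the 10 markers in the 3 WT (grey) and 3 TRIM24 C52/55A (orange) libraries, one panel a gene, with the mean and SD beside the points. Glul, Rhbg, Oat, Cyp2e1 and Hsd17b13 lie lower in every knockin library than in any WT library, Cyp2f2, Hal and Cyp1a2 lie higher, and Gls2 and Sds overlap.

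Because FPKM is per length, levels can be set beside each other. In WT liver Cyp2e1 was by far the highest at 3416 ± 461 FPKM (SD, n = 3), followed by Glul, Cyp2f2, Oat, Hsd17b13, Gls2, Cyp1a2, Sds, Hal and, last, Rhbg at 3.63 ± 0.593 FPKM. Along this order the WT libraries of Glul overlapped those of Cyp2f2, Cyp2f2 those of Oat, and Oat those of Hsd17b13, and further down Gls2 overlapped Cyp1a2 and Cyp1a2 overlapped Sds. The other neighbours did not overlap. In TRIM24 C52/55A liver the order was Cyp2e1, Cyp2f2, Glul, Hsd17b13, Oat, Cyp1a2, Gls2, Hal, Sds and Rhbg. There Cyp2f2 stood clear of Glul, Glul overlapped Hsd17b13, Oat overlapped Cyp1a2, Cyp1a2 overlapped Gls2, and Gls2 overlapped Hal, while the other neighbours did not overlap.

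Glul encodes glutamine synthetase, which joins ammonia to glutamate in the last hepatocytes before the central vein. It lies on the plus strand of GRCm38 at chr1:153899944-153909723 (ENSMUSG00000026473). Glul was at 584, 563 and 616 FPKM in the WT livers and at 289.6, 274 and 282 FPKM in the TRIM24 C52/55A livers. The highest knockin library was therefore far below the lowest WT library, and the spread within each genotype was small. The log2 fold change of Glul was -1.06 (SE 0.07, 95% interval -1.22 to -0.89), with a limma adjusted p of 0.000288, and only 14 of the 12225 genes had a smaller p. Glul was lower in 3 of 3 knockin libraries, and the exact two-sided permutation test gave p = 0.1, the smallest that 3 against 3 allows. Glul passed in all 14 alternative analyses, with limma adjusted p between 0.000194 and 0.00310.

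Oat encodes ornithine aminotransferase, which turns ornithine into an intermediate on the way to glutamate and lies in the same cells as glutamine synthetase. It is annotated on the minus strand at chr7:132557478-132576398 (ENSMUSG00000030934). Oat was at 330, 460 and 573 FPKM in WT and at 136, 86.9 and 179 FPKM in TRIM24 C52/55A liver. The libraries spread widely within both genotypes, yet every knockin library was below every WT library. The mean fell 3.39-fold, from 454 ± 121 to 134 ± 46.2 FPKM (SD, n = 3), the largest change of the 10 genes. On the log2 scale Oat changed by -1.78 (SE 0.27, 95% interval -2.41 to -1.15, limma adjusted p = 0.00955). Oat passed in 13 of 14 alternatives and missed in that with no filter on low values, at a limma adjusted p of 0.0517. The interval that the files give for Oat is 2961.9 kb long, against 18.9 kb in the annotation. The same interval is given for 38 other genes, whose mean levels sum to 160.4 FPKM. The highest of these was Acadsb, with a mean of 44.9 FPKM over the 6 libraries and a log2 fold change of 0.32, opposite to Oat. Lhpp, a further pericentral gene with this interval, was lower in every knockin library, as Oat was. How fragments were divided among these genes is not known.

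Rhbg encodes an ammonium transporter of the Rhesus family in the membrane of pericentral hepatocytes, at chr3:88242874-88254709 on the minus strand (ENSMUSG00000104445). It was at 3.33, 4.31 and 3.24 FPKM in WT and at 1.47, 1.18 and 2.52 FPKM in TRIM24 C52/55A liver. All knockin libraries were below all WT libraries, with the third knockin library nearest to WT. The log2 fold change, which the added 1 makes smaller for a gene this low, was -0.79 (SE 0.19, limma adjusted p = 0.0396). This call was weak, passing in 5 of 14 alternatives, and missed with median-of-ratios scaling and quantile normalisation (limma adjusted p = 0.0787 and 0.0756). The limma adjusted p was 0.0960, 0.121 and 0.101 without WT replicate 1, 2 or 3, and 0.141 and 0.0681 without knockin replicate 1 or 2. Rhbg also shares its interval in the files with 2 other genes, whose mean levels sum to 1.08 FPKM. Glul, Sds, Gls2 and Cyp2f2 share theirs too, with genes whose mean levels sum to 0.331, 22.3, 13.1 and 3.95 FPKM.

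Cyp2e1 and Cyp1a2 are cytochrome P450 enzymes of pericentral hepatocytes, of which the former oxidises ethanol and paracetamol and the latter caffeine and aromatic amines. Cyp2e1 (chr7:140763739-140774987, plus strand, ENSMUSG00000025479) was at 3033, 3287 and 3927 FPKM in WT and at 2355, 2145 and 2544 FPKM in TRIM24 C52/55A liver. The genotypes did not overlap, and the knockin mean was 2348 ± 199.5 FPKM (SD, n = 3). Cyp2e1 changed by -0.54 on the log2 scale (SE 0.12, 95% interval -0.81 to -0.27, limma adjusted p = 0.0318), and it passed in 7 of 14 alternatives but not with median-of-ratios scaling (limma adjusted p = 0.0878). Its limma adjusted p was 0.0540, 0.0792 and 0.0810 without WT replicate 1, 2 or 3, and 0.110 and 0.0641 without knockin replicate 1 or 2.

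Cyp1a2 (chr9:57676937-57683703, minus strand, ENSMUSG00000032310) was the pericentral gene that went the other way. It was at 74.7, 113 and 121 FPKM in WT and at 123, 128 and 135 FPKM in TRIM24 C52/55A liver. The lowest knockin library was just above the highest WT library, and WT replicate 1 was well below the others. For Cyp1a2 the log2 fold change was 0.35 (SE 0.17, 95% interval -0.03 to 0.73, limma adjusted p = 0.253). Without WT replicate 1 it was 0.14. It passed in none of the 14 alternatives, so a rise was not shown, while a fall of the size of Cyp2e1 lay outside its interval.

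**Figure D2:**
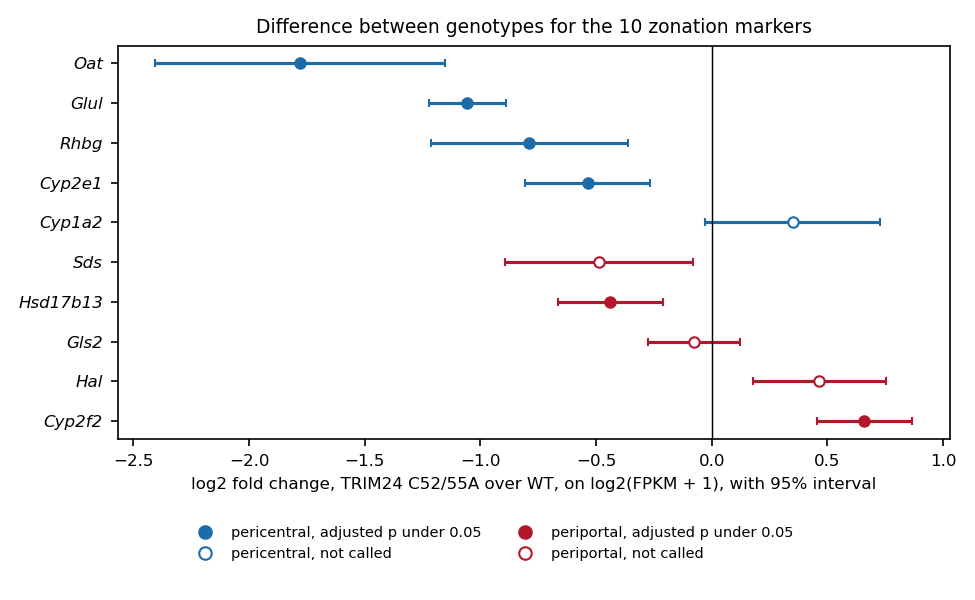
Log2 fold change (TRIM24 C52/55A over WT, on log2(FPKM + 1)) with its 95% interval for the 5 pericentral genes (blue) and the 5 periportal genes (red), filled where the adjusted p was under 0.05. Oat, Glul, Rhbg and Cyp2e1 lie to the left at -1.78 to -0.54, and the periportal genes lie on both sides of 0, from -0.49 to 0.66.

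Cyp2f2 encodes a cytochrome P450 that is a standard marker of periportal hepatocytes, at chr7:27119909-27133660 on the plus strand (ENSMUSG00000052974). It was at 548, 565 and 499.98 FPKM in WT and at 894, 885 and 775 FPKM in TRIM24 C52/55A liver. Every knockin library was well above every WT library. The mean rose from 538 ± 34.0 to 851 ± 66.3 FPKM (SD, n = 3), and this log2 difference was 0.66 (SE 0.09, 95% interval 0.46 to 0.87, limma adjusted p = 0.00623). Cyp2f2 passed in all 14 alternatives, with limma adjusted p between 0.00456 and 0.0350.

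Hal and Sds break down amino acids in periportal hepatocytes, Hal as histidine ammonia-lyase, the first step of histidine catabolism, and Sds as serine dehydratase, which makes pyruvate from serine. Hal (chr10:93488768-93519304, plus strand, ENSMUSG00000020017) was at 73.8, 84.8 and 84.0 FPKM in WT and at 102, 136 and 101 FPKM in TRIM24 C52/55A liver. The knockin libraries were all above WT, and knockin replicate 2 was the highest. Hal had a log2 fold change of 0.47 (SE 0.13, 95% interval 0.18 to 0.75), which missed the threshold at a limma adjusted p of 0.0612. With median-of-ratios scaling or quantile normalisation it passed, at limma adjusted p of 0.0253 and 0.0243.
Sds (chr5:120476526-120483932, plus strand, ENSMUSG00000029597) was at 97.3, 107 and 104 FPKM in WT and at 56.1, 98.3 and 70.1 FPKM in TRIM24 C52/55A liver. Knockin replicate 2 lay within the WT range and the other two were clearly below it, so the genotypes overlapped (exact two-sided permutation p = 0.2). Sds had a log2 fold change of -0.49 (SE 0.18, limma adjusted p = 0.140). Without knockin replicate 2 it was -0.70 and passed, at a limma adjusted p of 0.0134, so that 1 library decided this call, and without knockin replicate 1 it was -0.30.

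Gls2 encodes the liver glutaminase, which releases ammonia from glutamine at the periportal end and so does the reverse of Glul. It lies at chr10:128194457-128210004 on the plus strand (ENSMUSG00000044005). Gls2 was at 125, 117 and 125 FPKM in WT and at 111, 109 and 129 FPKM in TRIM24 C52/55A liver. The libraries of the genotypes overlapped, with the third knockin library above all others. The log2 fold change of Gls2 was -0.08 (SE 0.09, 95% interval -0.28 to 0.12, limma adjusted p = 0.652), and its sign turned with median-of-ratios scaling (0.025) and with quantile normalisation (0.073). A change of the size of Glul lay outside this interval.

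Hsd17b13 encodes a hydroxysteroid dehydrogenase on the surface of hepatocyte lipid droplets, at chr5:103955440-103977410 on the minus strand (ENSMUSG00000034528). It was at 396, 330 and 354 FPKM in WT and at 247, 294 and 256 FPKM in TRIM24 C52/55A liver. The genotypes did not overlap, although knockin replicate 2 came near the lowest WT library. Hsd17b13 changed by -0.44 on the log2 scale (SE 0.10, 95% interval -0.67 to -0.21, limma adjusted p = 0.0348), and it passed in 4 of 14 alternatives. With median-of-ratios scaling its limma adjusted p was 0.0685, and with quantile normalisation it was 0.155 at a log2 fold change of -0.27. Its limma adjusted p was 0.122, 0.0559 and 0.103 without WT replicate 1, 2 or 3, and 0.128 and 0.0798 without knockin replicate 1 or 3. Of 6 other lipid droplet and lipogenic genes 1 passed, where 7.72% of all genes did. This was Plin2, which coats lipid droplets, at 413, 346 and 385 FPKM in WT and 231, 257 and 206 FPKM in the knockin (log2 fold change -0.72, limma adjusted p = 0.00774).

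A ratio of a pericentral to a periportal gene within a library does not depend on how that library was scaled. Of the 25 such ratios, 16 were lower in every knockin library than in any WT library, 3 were higher and 6 overlapped, and over all ordered pairs of tested genes above 0 in every library 13.3% were lower without overlap. All 5 ratios with Glul and all 5 with Oat were lower, as were 3 of 5 with Rhbg and 3 of 5 with Cyp2e1, whereas 3 of 5 with Cyp1a2 were higher. The ratios share genes and are not independent of one another. Glul to Gls2, the glutamine-making over the glutamine-splitting enzyme, was 4.66, 4.80 and 4.94 in WT and 2.61, 2.52 and 2.18 in TRIM24 C52/55A liver, a mean 1.97-fold lower. Glul to Cyp2f2 was 1.07, 0.996 and 1.23 in WT and 0.324, 0.310 and 0.364 in the knockin, 3.30-fold lower. Glul and Cyp2f2 were thus about level in WT liver, and Cyp2f2 was the higher in each knockin library. Oat to Hal was 4.47, 5.42 and 6.83 in WT and 1.33, 0.640 and 1.78 in the knockin, 4.46-fold lower, and Cyp2e1 to Cyp2f2 fell 2.30-fold. The exact two-sided permutation test gave p = 0.1 for each of these 4 ratios, the smallest it can give.

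**Figure D3:**
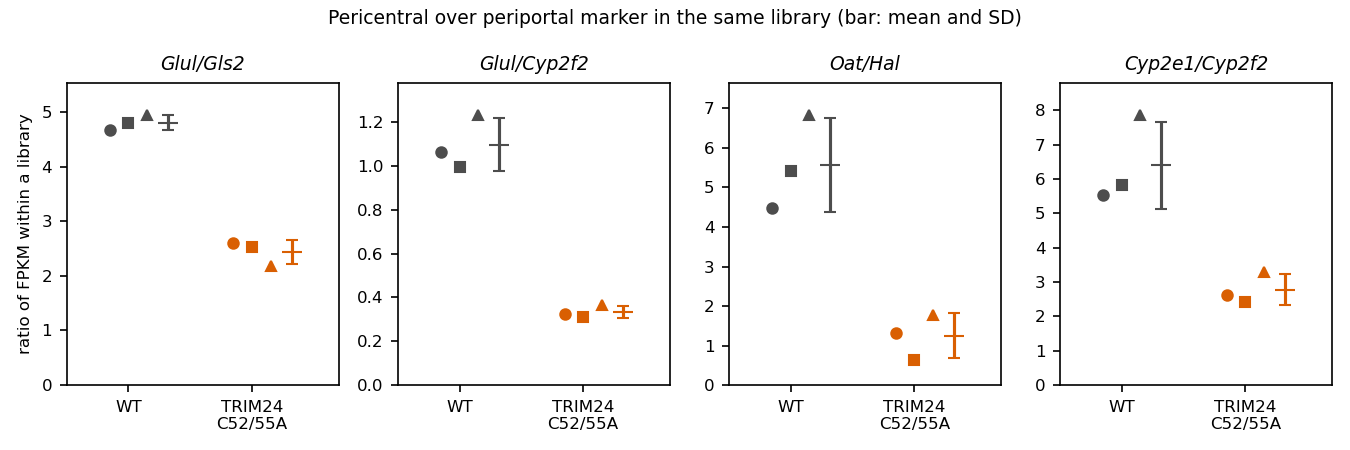
Ratio of FPKM of a pericentral to a periportal gene in the same library (linear axis from 0) for the 3 WT (grey) and 3 TRIM24 C52/55A (orange) libraries, with mean and SD; circle, square and triangle are replicates 1, 2 and 3. All 4 ratios are lower in each knockin library, with Glul to Gls2 at 2.18 to 2.61 against 4.66 to 4.94 in WT.

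Averaged on the log2(FPKM + 1) scale, the 5 pericentral genes minus the 5 periportal genes gave -0.01, 0.27 and 0.37 in the WT libraries and -0.47, -0.95 and -0.32 in the TRIM24 C52/55A libraries. The genotypes did not overlap, and knockin replicate 2 was the farthest from WT. This library had the lowest level of 5 of the 10 genes. It also stood apart in adipocyte genes, with Adipoq at 4.55, Lep at 3.98, Plin1 at 3.32 and Retn at 1.59 FPKM, where no other library was above 0.127 FPKM for any of them. Cfd, the other adipocyte gene of the list, did not follow them, at 4.17, 8.62 and 3.10 FPKM in WT and 0.112, 2.54 and 0.821 FPKM in the knockin, with this library below all WT libraries. The part of adipose RNA in these results was not tested. Without this library 2 pericentral genes passed (Glul and Oat) and 3 periportal genes did (Cyp2f2, Hsd17b13 and Sds), while 1272 genes passed overall.

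Other genes known to be zonated were listed to see how far the members stand for their zones. Of 19 other pericentral genes 6 fell and none rose, and the median log2 fold change was -0.44. By sign 14 were lower and 5 higher. The 5 were Avpr1a (log2 fold change 0.69), Rgn (0.56), Cyp3a11 (0.30), Cyp2c37 (0.12) and Axin2 (0.10), which all overlapped between genotypes. Of 17 other periportal genes 2 rose and 2 fell, and the median was -0.21. Over all genes tested 1.64% rose and 6.09% fell, with a median of -0.08. The pericentral genes that fell were Lhpp (log2 fold change -1.14), whose interval in the files, 2961.9 kb, is that of Oat, so that the values of both may share fragments, Aldh3a2 (-1.09), which oxidises fatty aldehydes, Lect2 (-1.0), a secreted protein and Wnt target, Cyp2c29 (-0.82), a P450, Nr1i3 (-0.80), the xenobiotic receptor CAR, and Slc1a2 (-0.60), a glutamate transporter. Aldh3a2 went from 351 ± 50.8 to 164 ± 18.0 FPKM (SD, n = 3; limma adjusted p = 0.00273), and Nr1i3 was at 120, 101 and 140 FPKM in WT and 76.8, 61.0 and 67.0 FPKM in the knockin. Both were lower in every knockin library. Without knockin replicate 1 the pericentral count was 3, and without knockin replicate 3 it was 10. The limma adjusted p of Lect2 was 0.0651, 0.0844 and 0.0888 without WT replicate 2, WT replicate 3 or knockin replicate 1, and that of Cyp2c29 was 0.0640 to 0.115 without any one of these or WT replicate 1. With median-of-ratios scaling and quantile normalisation Lect2 (limma adjusted p = 0.0512 and 0.0599) and Cyp2c29 (limma adjusted p = 0.0903 and 0.0782) missed too. Lhpp missed without knockin replicate 1 (limma adjusted p = 0.0672) and Nr1i3 without WT replicate 1 (limma adjusted p = 0.0516).
Of the periportal genes, Cps1, the first enzyme of the urea cycle, rose from 321 ± 37.1 to 498 ± 78.0 FPKM (SD, n = 3; log2 fold change 0.63, limma adjusted p = 0.0281). Cdh1, which encodes E-cadherin, rose with a log2 fold change of 1.26 (limma adjusted p = 0.0482). Fbp1, an enzyme of gluconeogenesis, fell by 0.50 and Aldh1b1, a mitochondrial aldehyde dehydrogenase, fell by 0.93 on the log2 scale. None of these 4 passed when WT replicate 1, 2 or 3, or knockin replicate 1, was left out, which brought the periportal count to 0 in each case, with limma adjusted p between 0.0512 and 0.168. Cps1 also missed without knockin replicate 3 (limma adjusted p = 0.0529), and Cdh1 and Aldh1b1 without knockin replicate 2 (limma adjusted p = 0.0832 and 0.0912). Median-of-ratios scaling ended the calls of Fbp1 and Aldh1b1 (limma adjusted p = 0.0797 and 0.0925), and quantile normalisation did so for Aldh1b1.

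**Figure D4:**
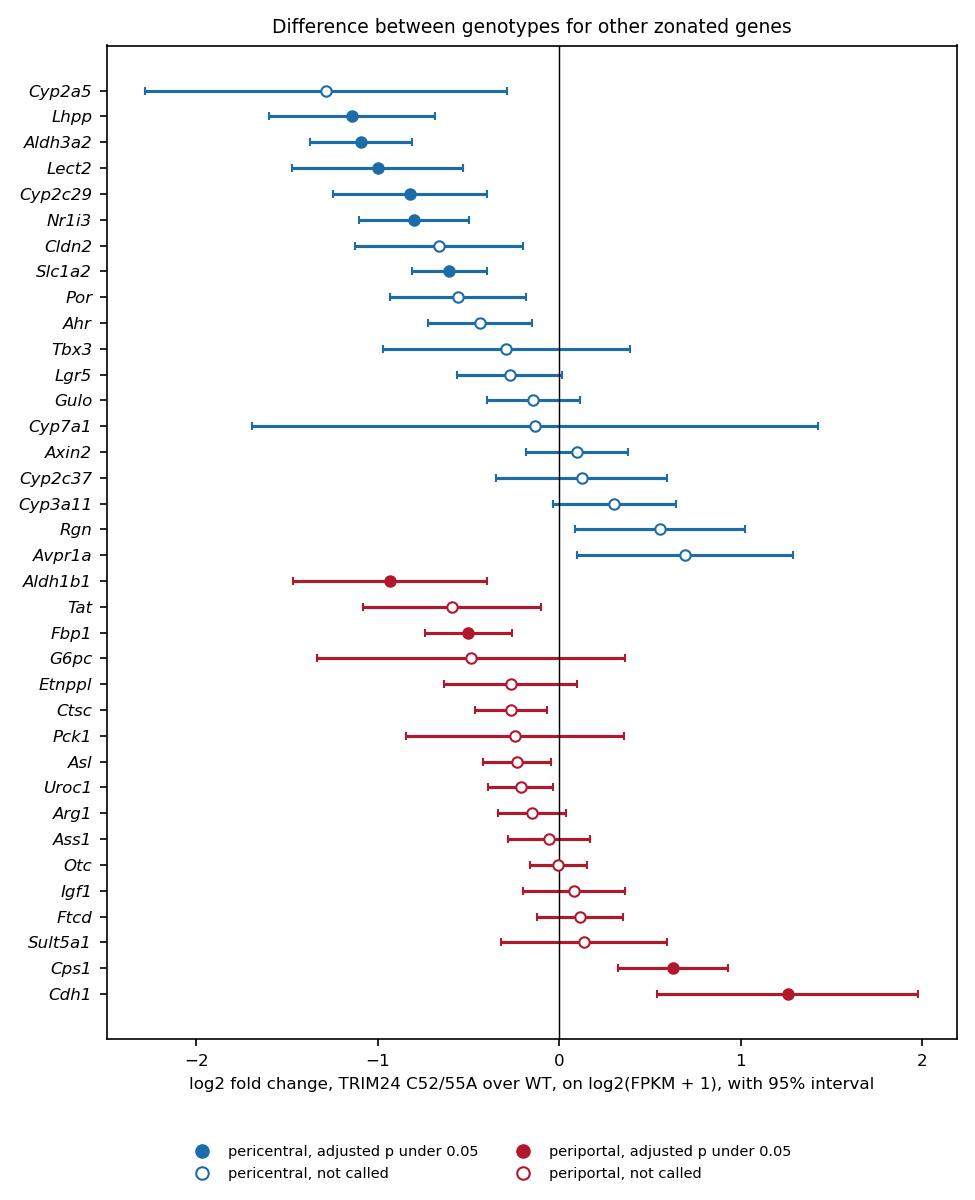
Log2 fold change (TRIM24 C52/55A over WT, on log2(FPKM + 1)) with its 95% interval for 19 other pericentral genes (blue) and 17 other periportal genes (red), ordered by size within each zone and filled where the adjusted p was under 0.05. The 6 filled pericentral genes are all below 0, and the 4 filled periportal genes fall on both sides.

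Since Wnt signalling maintains the pericentral programme, its ligands, receptors, transducers and targets were examined. Of 28 Wnt pathway genes tested 1 passed, where 7.72% of all genes did. This was Fzd1, a frizzled receptor, which fell from 2.63 ± 0.167 to 1.40 ± 0.219 FPKM (SD, n = 3; log2 fold change -0.60, limma adjusted p = 0.0170). Without WT replicate 1, 2 or 3 or knockin replicate 1, Fzd1 missed the threshold (limma adjusted p 0.0546 to 0.0703). Wnt2, a ligand of liver endothelium, was at 1.24, 1.40 and 2.45 FPKM in WT and at 1.35, 1.30 and 1.59 FPKM in TRIM24 C52/55A liver. Rspo3, the R-spondin of the central vein, was at 2.32, 2.20 and 2.40 FPKM in WT and at 2.37, 1.83 and 2.43 FPKM in the knockin. Both overlapped between genotypes, with log2 fold changes of -0.13 and -0.05. Wnt9b and Rspo1 were too low to be tested, at no more than 0.604 FPKM in any library.

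Among Wnt targets, Axin2, a feedback inhibitor, was at 1.67, 1.93 and 1.65 FPKM in WT and at 2.35, 1.92 and 1.59 FPKM in TRIM24 C52/55A liver. Lgr5, an R-spondin receptor of pericentral hepatocytes, was at 1.86, 1.53 and 1.74 FPKM in WT and at 1.33, 0.936 and 1.49 FPKM in the knockin, where all libraries were lower. Tbx3, a transcription factor, was at 5.24, 6.10 and 5.71 FPKM in WT and at 8.14, 4.08 and 2.48 FPKM in the knockin, a wide spread around WT. The log2 fold changes were 0.10 for Axin2, -0.27 for Lgr5 and -0.29 for Tbx3, with limma adjusted p of 0.694, 0.237 and 0.614. None of the 9 targets in this list passed the limma test, 2 of 9 had an unadjusted p under 0.05, as did 23.6% of all genes tested, 1 passed with TPM, and their median was -0.27. Lgr5 and 3 further targets, Sp5, Nkd1 and Tcf7, named after their values were seen, were lower in every knockin library than in any WT library, where 22.5% of all genes tested were. The other targets, Axin2, Tbx3, Znrf3, Rnf43 and Notum, overlapped between genotypes. Znrf3 and Rnf43 had log2 fold changes of -0.10 and -0.23. Notum, the highest of the targets, was at 14.1 FPKM in WT and 17.0 FPKM in the knockin (means, log2 fold change 0.25). Sp5 had 56.0%, Nkd1 71.8% and Tcf7 60.7% of the WT mean, with limma adjusted p of 0.214, 0.118 and 0.0649. The log2 scale with 1 added understates changes at these low levels.

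**Figure D5:**
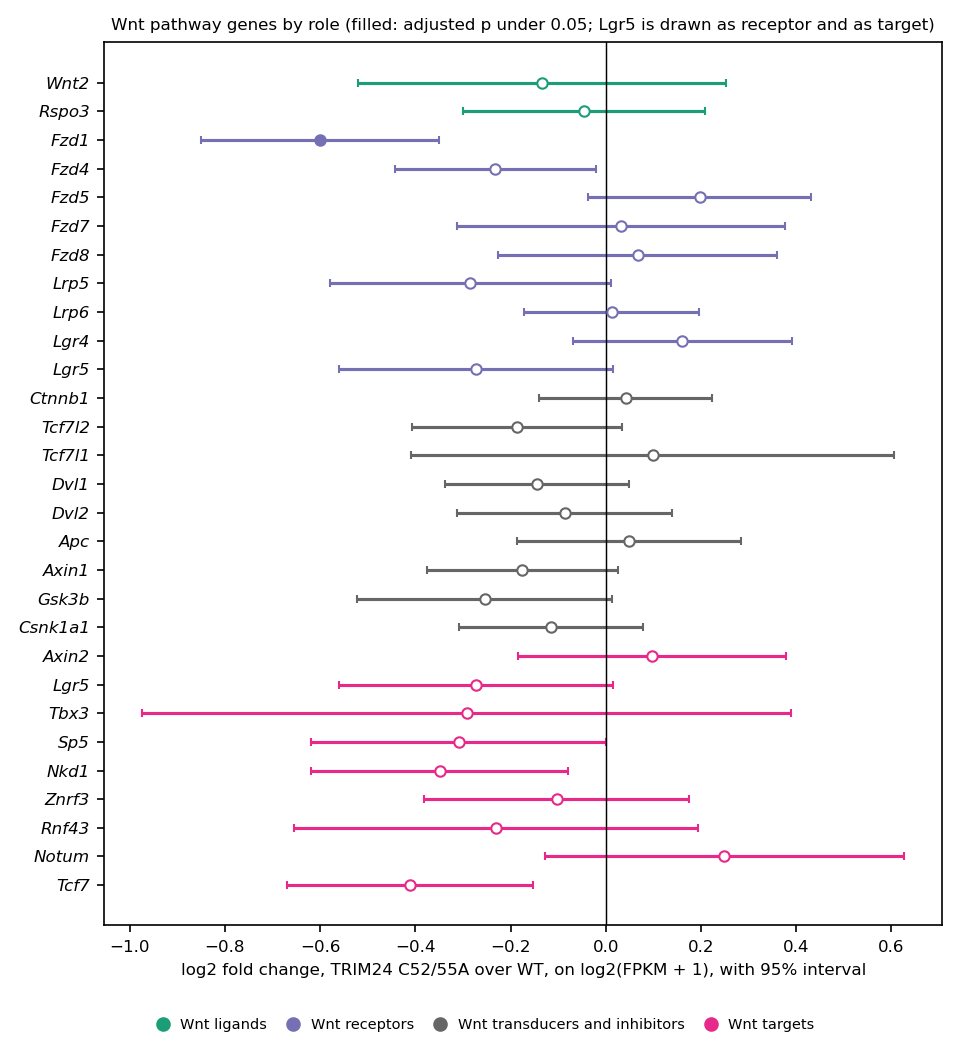
Log2 fold change (TRIM24 C52/55A over WT, on log2(FPKM + 1)) with its 95% interval for 28 Wnt pathway genes, coloured by role, with Lgr5 drawn in 2 roles. Fzd1, at -0.60, is the gene whose adjusted p was under 0.05, and most other intervals cross 0.

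The pathways around single members were examined in the same way. Of 10 other genes of glutamine, ammonia and proline handling 3 fell and none rose, with a median log2 fold change of -0.30, where that of all genes tested was -0.08. Beside Slc1a2, these were Prodh (-0.59), proline dehydrogenase, and Aldh4a1 (-0.39), the next enzyme of proline breakdown, whose product is glutamate, as is that of the route through Oat. Prodh was at 43.6, 46.0 and 52.8 FPKM in WT and at 26.7, 35.7 and 31.2 FPKM in TRIM24 C52/55A liver. In the next 3 lists 1 gene each passed, where 6.09% of all genes fell, and single calls in lists this short are given for the genes and not for the lists. Of 8 other genes of serine and histidine breakdown 1 fell, Shmt1 (-0.51), which moves a carbon from serine to folate. Of 5 tested genes of the aryl hydrocarbon receptor pathway, which induces Cyp1a2, 1 fell, Nqo1 (-1.0), a quinone reductase. Of 4 redox partners of P450 enzymes 1 fell, Cyb5a (-0.50), cytochrome b5, at 558, 608 and 691 FPKM in WT and 393, 435 and 482 FPKM in the knockin. Prodh, Aldh4a1, Shmt1 and Cyb5a each missed the threshold without WT replicate 1, 2 or 3 or knockin replicate 1, Nqo1 without WT replicate 1 or 3 or knockin replicate 1 or 2, and Shmt1 also without knockin replicate 2, with limma adjusted p between 0.0534 and 0.144. Aldh4a1, Shmt1, Nqo1 and Cyb5a also missed with median-of-ratios scaling (limma adjusted p 0.0627 to 0.114) and quantile normalisation (0.0564 to 0.161), and Shmt1 without the trend (0.0581).

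Markers of cell types were compared to see which moved with these genes. The 5 hepatocyte markers (Apoa1, Apob, Ttr, Trf and Hnf4a) summed to 18416 to 19184 FPKM in WT and to 17881 to 19992 FPKM in TRIM24 C52/55A liver, and none passed the limma test or had an unadjusted p under 0.05. The summed markers of the central vein endothelium (Rspo3, Wnt2, Wnt9b and Thbd) were 5.16 to 7.69 and 5.35 to 6.20 FPKM, with none of 3 tested passing and 0 at an unadjusted limma p under 0.05. Of 5 markers of sinusoidal endothelium 1 fell, where 6.09% of all genes did. This was Lyve1 (log2 fold change -1.26), while the other 4 were at -0.18 to -0.04, and the sums of the 5 were 76.7 to 84.2 FPKM in WT and 65.9 to 76.2 FPKM in the knockin. Without WT replicate 1, 2 or 3 or knockin replicate 1 Lyve1 missed the threshold (limma adjusted p 0.0605 to 0.0863). None passed of 5 Kupffer cell, 5 stellate cell, 4 cholangiocyte or 4 adipocyte markers tested by limma. Of them, 1, 2, 3 and 1 had an unadjusted p under 0.05, as did 23.6% of all genes tested. In the alternatives 1 adipocyte marker passed with TPM, with the replicate number as a block and without knockin replicate 2. Without knockin replicate 2, 1 stellate marker passed too. The 3 cholangiocyte markers went both ways, with log2 fold changes of 0.54 for Sox9, -0.42 for Epcam and -0.58 for Spp1. The Kupffer sums were 134 to 178 and 118 to 157 FPKM, and the stellate sums 102 to 112 and 100.4 to 127 FPKM. Of the stellate markers, 3 of 5 (Lrat, Reln and Hgf) were higher in every knockin library than in any WT library, where 6.31% of all genes tested were, with log2 fold changes of 0.31, 0.24 and 0.21. Col1a1 went the other way, with a log2 fold change of -0.62 and libraries that overlapped, and Dcn was at 0.06. The cholangiocyte sums were 28.5 to 53.8 and 21.8 to 34.0 FPKM, with Cftr at or near 0 in every library, and the adipocyte sums 3.25 to 8.62 and 0.112 to 16.0 FPKM. The part of these cell types in the results was not tested.

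Across the series, the FPKM of a library summed to 644619 to 648221 in WT and to 673244 to 676791 in TRIM24 C52/55A liver, so the genotypes differed in this sum. Read counts were not among the values, and the steps of low values put the depth of the 6 libraries within 0.963 to 1.03 of WT replicate 1. Over all genes, 200 rose and 744 fell, and this split depended on scaling, with 250 and 406 under median-of-ratios scaling, 255 and 378 under quantile normalisation and 197 and 1358 with values rescaled to TPM. The 944 calls became 313, 480 and 301 without WT replicate 1, 2 or 3, and 296 without knockin replicate 1. Trim24 itself was at 5.54, 4.85 and 5.96 FPKM in WT and at 6.15, 4.31 and 8.46 FPKM in the knockin (log2 fold change 0.14, limma adjusted p = 0.713), and the exchange of codons does not let its level check the labels. The Y-linked genes Ddx3y, Eif2s3y, Kdm5d and Uty were present in all 6 libraries, with none passing the limma test and 1 at an unadjusted p under 0.05, and Xist was at or near 0.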

How the data were processed

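RNA of 3 WT and 3 TRIM24 C52/55A liver samples was sequenced with standard Illumina libraries. The authors deposited 1 table of FPKM per library, that is fragments divided by gene length and by the library's total, and genes absent from a table were taken as 0. The submitters' processing notes name bcl2fastq, Salmon 0.14.0, DESeq2 1.30.0 and GRCm38 without saying which made the FPKM, and the tool and annotation behind it are not given in the sources used here. File positions were set against GENCODE M21 and starts were raised by 1. Several genes share 1 interval in the files, so how fragments were divided among them is not known.

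Libraries were grouped by the genotype in the labels. The 12225 of 21528 genes whose mean reached 0.5 FPKM were fitted as log2(FPKM + 1) with limma 3.58.1 (R 4.3.3, empirical Bayes with trend), with Benjamini-Hochberg adjustment over all of them and a threshold of 0.05. A fold change on this scale understates that of low genes. Single genes were also given an exact two-sided permutation test, which cannot go below 0.1 with 3 against 3. In simulated data for this comparison over 12225 genes, the share recovered was 69.1% of 94 genes set to differ 2-fold and 93.4% of 106 genes set to differ 4-fold. In the same run 13 unchanged genes were called, and a run with no change gave 0 calls. All set changes were rises, in genes with a WT mean log2(FPKM + 1) above 1 and with normal noise. The recovery of falls and of lower genes was therefore not measured. Libraries were checked for identical values (0 pairs), and Spearman correlations across genes, which are not independent, were 0.976 to 0.988 within and 0.969 to 0.976 between genotypes.

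The members and gene lists were chosen with earlier results of these data known, and the 4 ratios shown were chosen after their values were seen. Named were all 10 members, Trim24, the Wnt ligands, Axin2, Lgr5 and Tbx3. From each other list the genes that passed were named, at most 6 by size, as was any cell type or Y-linked marker. Further Wnt targets and the other pericentral genes that were higher were named after their values were seen. The alternatives were a pseudocount of 0.1, no filter, a mean of at least 1 FPKM, median-of-ratios scaling, quantile normalisation, TPM, limma without the trend, the replicate number as a block, and leaving out each library.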

Additional observations from a re-analysis of the deposited data

How the results depend on the processing

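Glul and Cyp2f2 passed in all 14 alternatives, and Oat in 13. Leaving out 1 library at a time gave 296 to 1272 genes called (88 to 239 higher, 202 to 1033 lower), 2 to 4 pericentral and 1 to 3 periportal members, 3 to 10 other pericentral genes and 0 to 3 other periportal genes. With no filter on low values 347 genes were called (95 higher, 252 lower), with 1 pericentral and 1 periportal member, 2 other pericentral genes and 0 other periportal genes. Median-of-ratios scaling gave 406 genes lower, 2 pericentral members, 2 other periportal genes and a periportal median of 0.025, and quantile normalisation 378 genes lower and a periportal median of 0.073. TPM gave 1555 genes (1358 lower). Limma without the trend gave 1 periportal member and 2 other periportal genes, and a pseudocount of 0.1 gave 2 other periportal genes. Signs turned for Gls2 (0.025 with median-of-ratios scaling, 0.073 with quantile normalisation), Rspo3 (0.027 and 0.0097 likewise, -0.097 to 0.042 as single libraries were left out, above 0 without knockin replicate 2), Wnt2 (-0.25 to 0.059 as single libraries were left out, above 0 without WT replicate 3), Tbx3 (-0.66 to 0.031) and Trim24 (-0.061 to 0.35), both turned without knockin replicate 3, none of which passed the test. Beyond the smaller number of samples when a library was left out, the cause was not tested. Same-numbered samples of the genotypes did not deviate together (correlations of -0.123, -0.0988 and 0.00267 across genes). Differently numbered samples gave -0.0510 to 0.142. The labels give a common number and no pairing, and such correlations cannot exclude a shared origin. With the replicate number as a block 578 genes were called (422 lower), with 1 periportal member, and no sample pair was taken as matched. Depth is known only as a ratio between libraries, which limits what can be said of low genes such as Rhbg, Axin2 and Wnt2.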
